A study of Rattus norvegicus with 24 samples.

Results

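The mitochondrial carriers of the Slc25 family were described by the 32 genes whose symbol begins with Slc25a and that had a named probe on the array, out of 13337 named genes and 22523 probes. Slc25a20, the carnitine-acylcarnitine carrier, was left out of the family by this rule. The 32 genes had 34 probes, because Slc25a30 had 3 probes, and each gene was taken from the probe with the highest mean. Slc25a12, Slc25a13, Slc25a28 and Slc25a37 were not analysed here.

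Left ventricle outside the infarct was taken from 12 Sprague-Dawley rats, all female and 3 months old, and its RNA was hybridized to Illumina RatRef-12 BeadChips 4 weeks after surgery. In the MI+T4 group, 4 rats had a coronary ligation that produced myocardial infarction and received a subcutaneous thyroxine (T4) pellet of 3.3 mg that released over 60 days. In the MI group, 4 rats had the same ligation with a placebo pellet, and in the Sham group 4 rats had a loosely tied suture with a placebo pellet. MI rats with very small or very large infarcts had been excluded before the arrays, so MI and MI+T4 stand for infarcts of intermediate size. Each rat was measured on 2 arrays, 1 on each of 2 BeadChips. The signals were read as log2 values, since the transformation that the authors applied is close to log2. On this scale the table ran from 6.88 to 16.47 and the array medians lay between 7.81 and 7.82.

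Carriers of this family sit, with few exceptions, in the inner mitochondrial membrane and move metabolites, nucleotides, phosphate and cofactors between cytosol and matrix. In heart muscle the adenine nucleotide translocases exchange matrix ATP for cytosolic ADP, the phosphate carrier brings in phosphate for ATP synthesis, and the oxoglutarate carrier is an arm of the malate-aspartate shuttle that passes reducing equivalents from glycolysis to the matrix. The proteins are made in the cytosol and inserted through the TIM22 translocase, with small Tim chaperones in the intermembrane space.

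The promoter windows of both members that were lower than Sham with and without T4, Slc25a15 and Slc25a35, are given together with those of Slc25a29 and Slc25a38, whose MI and Sham rats did not overlap. They are the 250 bases before the gene start in the RefSeq genes of the GRCr8 assembly, written 5′ to 3′ on the gene's strand, with the GC box GGGCGG and the ETS core CCGGAAG (either strand) in capitals. The windows lie at chr16:76336620-76336869 (+ strand) for Slc25a15, chr10:54172115-54172364 (+ strand) for Slc25a35, chr6:133517198-133517447 (- strand) for Slc25a29 and chr8:128712930-128713179 (+ strand) for Slc25a38.
Slc25a15: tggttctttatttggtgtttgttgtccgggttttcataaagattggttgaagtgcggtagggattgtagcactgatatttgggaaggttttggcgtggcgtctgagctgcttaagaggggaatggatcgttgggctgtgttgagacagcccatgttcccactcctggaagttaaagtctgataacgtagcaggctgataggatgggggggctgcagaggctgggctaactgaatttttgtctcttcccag
Slc25a35: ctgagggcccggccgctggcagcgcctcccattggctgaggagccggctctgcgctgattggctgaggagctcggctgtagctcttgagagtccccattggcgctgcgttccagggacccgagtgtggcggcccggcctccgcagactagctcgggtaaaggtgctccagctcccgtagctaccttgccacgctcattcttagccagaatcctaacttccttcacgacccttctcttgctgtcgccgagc
Slc25a29: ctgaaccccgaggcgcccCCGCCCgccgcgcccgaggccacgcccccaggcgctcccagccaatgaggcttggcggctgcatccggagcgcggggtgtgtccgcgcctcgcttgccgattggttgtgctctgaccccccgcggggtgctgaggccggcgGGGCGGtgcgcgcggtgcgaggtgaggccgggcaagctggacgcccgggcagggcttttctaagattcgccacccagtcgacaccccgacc
Slc25a38: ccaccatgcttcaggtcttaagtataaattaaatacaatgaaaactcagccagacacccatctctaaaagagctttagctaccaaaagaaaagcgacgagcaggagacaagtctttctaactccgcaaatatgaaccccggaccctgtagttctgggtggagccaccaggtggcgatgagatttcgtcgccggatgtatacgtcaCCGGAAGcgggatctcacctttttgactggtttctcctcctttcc

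Of the 32 members, 27 matched a RefSeq promoter. The GC box stood in 18 of these (66.7%), against 30.5% of all 33469 promoters of the same length, and the median GC content was 59.6% in the members and 51.2% in all promoters. The ETS core stood in 4 (14.8%), namely Slc25a3, Slc25a4, Slc25a14 and Slc25a38, against 7.27% of all promoters. The nuclear receptor core AGGTCA stood in 6 (22.2%), against 14.1%, and the E-box CACGTG in 2 (7.41%), against 5.59%. The longer estrogen-related receptor letters TNAAGGTCA, which contain that core, and the NRF1 letters GCGCANGCG were in 0 of 27 windows, against 1.04% and 5.09% of all promoters. The windows of Slc25a15 and Slc25a35 held none of these motifs, which says only that those letters are not in these windows.

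Heart muscle markers were present in every group. The mean level of the 11 measured of 13 cardiomyocyte markers ranged over rats from 14.42 to 14.49 in MI+T4, from 14.31 to 14.46 in MI and from 14.40 to 14.47 in Sham. In MI vs Sham 8 of these 11 lay below 0 and 1 fell, Ckm, the muscle creatine kinase, at -0.20 log2 (adjusted p = 0.045, limma), and 0 passed in the other comparisons. The mean level of the 11 fibroblast markers ranged from 11.78 to 12.79 in MI+T4, from 12.04 to 13.19 in MI and from 11.78 to 12.29 in Sham, and 5 of them rose in MI and 3 in MI+T4 (Pdgfra, Pi16 and Cd248) relative to Sham. The 4 measured of 6 atrial markers had mean levels from 11.99 to 13.78 in MI+T4, from 12.21 to 13.37 in MI and from 10.86 to 12.56 in Sham, and 3 of them rose in MI and 2 in MI+T4 (Pam and Nppa) relative to Sham. Nppa is also made by stressed ventricle. The 4 measured of 5 adipocyte markers had group means between 7.35 and 7.94, close to the array medians. MI+T4 rat 7, MI rat 5 and MI rat 8 stood apart, with fibroblast markers at a median of 0.89, 1.19 and 1.17 log2 above the Sham mean. The other 9 rats lay between -0.19 and 0.35. Atrial markers had medians of 2.01, 1.68 and 1.55 in the same 3 rats and 1.78 in MI+T4 rat 5. They lay between 0.41 and 0.83 in the other infarcted rats and between -0.59 and 0.54 in Sham rats. The atrial marker Myl7 ran from 9.29 to 14.28 over the Sham rats and reached 16.14 in MI+T4 rat 5. Of the 6 endothelial, 6 macrophage and 4 smooth muscle markers measured, 0 passed in any comparison. In such tissue RNA, fewer cells of a type and less RNA per cell cannot be told apart, and the part of cell composition in the results was not tested.

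Infarction was compared with sham surgery first. Of the 32 carriers, 3 fell in MI hearts and 0 rose (adjusted p under 0.05, limma, adjusted over all probes). With 1 mean per rat, 0 of these 3 passed. The 3 were Slc25a15, the ornithine carrier of the urea cycle, Slc25a46, an outer membrane member that takes part in mitochondrial fusion and shape, and Slc25a35, a carrier whose substrate is not settled. Taken as log2 values, their signals in MI were 0.774, 0.832 and 0.860 of those in Sham. The other 29 carriers did not pass, among them the translocases and the phosphate carrier that serve ATP synthesis. The 3 members are 9.38% of the family, beside 3.61% of all probes called in either direction and 1.72% called lower in MI. The median difference of the members was -0.041 log2, beside -0.0044 for all probes, 23 of 32 members lay below 0, and 28 of 32 were within 0.2 log2 of no difference, beside 92.7% of all probes. Without the 3 rats that stood apart the median of the members was -0.0058. Of the infarcted rats, that smaller fit kept only MI rats 6 and 7 and MI+T4 rats 5, 6 and 8.

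Slc25a15 had signals of 9.48, 9.75, 9.78 and 9.37 in MI rats 5 to 8, against 9.98, 10.08, 9.98 and 9.81 in Sham rats 1 to 4. All MI rats lay below all Sham rats, with MI rats 5 and 8 lowest. The difference was -0.37 ± 0.08 log2 (SE of the fit), a ratio of 0.774, with an adjusted p of 0.0075 in limma. An exact two-sided permutation test over the rat means gave p = 0.0286, the smallest that 4 against 4 rats allow. With the first technical replicate of each rat alone the difference was -0.33 and with the second alone -0.41. Without MI rat 8 it was -0.29 with an adjusted p of 0.071 in limma, and without the 3 rats that stood apart it was -0.20 with an adjusted p of 0.23. The latter fit kept only MI rats 6 and 7 of the MI group. It left out the lowest MI rats of this gene, so a smaller difference was bound to follow.

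Slc25a35 had signals of 8.64, 8.65, 8.58 and 8.61 in MI rats 5 to 8, against 8.75, 8.87, 8.82 and 8.91 in Sham rats 1 to 4. The MI rats lay close together, with an SD of 0.030, and all below the Sham rats. The difference was -0.22 ± 0.05 log2, a ratio of 0.860, with an adjusted p of 0.0067 in limma and p = 0.0286 in the exact permutation test. It was -0.23 and -0.21 with either technical replicate alone. Without the 3 rats that stood apart it was -0.22, with an adjusted p of 0.061 in limma in that smaller fit.

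Slc25a46 had signals of 9.99, 10.15, 10.28 and 9.96 in MI rats 5 to 8, against 10.20, 10.38, 10.51 and 10.36 in Sham rats 1 to 4. The groups overlapped, since MI rat 7 was above Sham rat 1. The difference was -0.27 ± 0.07 log2, a ratio of 0.832, with an adjusted p of 0.023 in limma and p = 0.0571 in the exact permutation test. With either technical replicate alone it was -0.28 and -0.25. Without MI rat 5 it was -0.23 (adjusted p = 0.13, limma), and without MI rat 8 -0.22 (adjusted p = 0.16). Without Sham rat 2, 3 or 4 the adjusted p was 0.064, 0.11 and 0.056 in limma. Without the 3 rats that stood apart the difference was -0.15 (adjusted p = 0.73, limma). MI rats 5 and 8, left out there, were the lowest MI rats of this gene too.

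**Figure D1:**
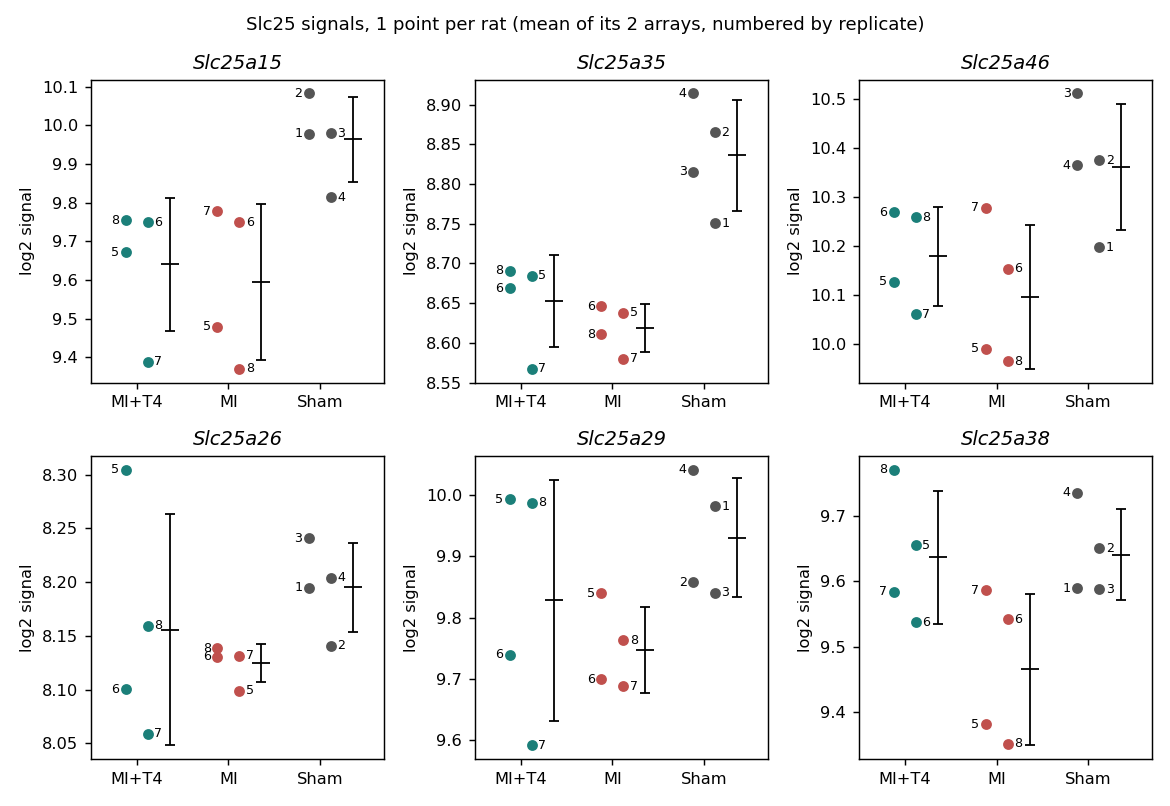
Log2 signal of 6 Slc25 genes in each rat (point, mean of its 2 arrays, with its replicate number) in MI+T4, MI and Sham, with the group mean and SD (n = 4) as the bar at the right of each group. In Slc25a15 and Slc25a35 all MI+T4 and MI rats lie below all Sham rats; in Slc25a46 MI rat 7 (10.28) lies above Sham rat 1 (10.20); in Slc25a26, Slc25a29 and Slc25a38 all MI rats lie below all Sham rats, while MI+T4 overlaps Sham.

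These 3 calls rest on a fit that assumes 1 correlation, 0.243, between paired arrays for every probe. With 1 mean per rat, 0 members and 0 of all probes passed in this comparison, the adjusted p of Slc25a35, Slc25a15 and Slc25a46 was 0.16, 0.24 and 0.26, and 5 members (15.6%) had an unadjusted p under 0.05, beside 11.4% of all probes. In Slc25a15 the SD between rats of a group was 0.166 and that between the arrays of a rat 0.076, whereas in Slc25a35 they were 0.055 and 0.070. In Slc25a46 they were 0.127 and 0.082. The SE of the difference was 0.079 in this fit and 0.103 on rat means in Slc25a15, and 0.067 and 0.081 in Slc25a46. In these genes the shared correlation thus gave the smaller SE. In Slc25a35 the SE was 0.046 and 0.042.

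In 5 members (15.6%) all MI rats lay below all Sham rats, beside 5.80% of all probes that were apart in either direction, and 0 members were apart in the higher direction. Besides Slc25a15 and Slc25a35 these were Slc25a26, Slc25a29 and Slc25a38, which did not pass the test. Slc25a29, a carrier of arginine, lysine and other basic amino acids, had 9.84, 9.70, 9.69 and 9.76 in MI against 9.98, 9.86, 9.84 and 10.04 in Sham. The highest MI rat and the lowest Sham rat were nearly level, and the difference was -0.18 ± 0.07 log2 (adjusted p = 0.14, limma). Slc25a38, which imports glycine for heme synthesis, had 9.38, 9.54, 9.59 and 9.35 in MI against 9.59, 9.65, 9.59 and 9.74 in Sham. Here too MI rats 5 and 8 were lowest, and the difference was -0.18 ± 0.06 log2 (adjusted p = 0.096, limma), or -0.08 without the 3 rats that stood apart. Slc25a26, the S-adenosylmethionine carrier, lay between 8.10 and 8.14 in MI and between 8.14 and 8.24 in Sham, a difference of only -0.07 ± 0.05 log2 (adjusted p = 0.66, limma).

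Among the carriers of energy metabolism no member passed. Slc25a4, the heart-type adenine nucleotide translocase, had 15.78, 16.16, 15.88 and 15.98 in MI against 15.96, 15.96, 16.06 and 15.97 in Sham, so that MI rats lay on both sides of the Sham rats and spread more widely. Its difference was -0.04 ± 0.06 log2, with a 95% interval on rat means from -0.19 to 0.10. Slc25a5, the other translocase on the array, lay at 13.75 ± 0.08 in MI and 13.69 ± 0.05 in Sham (SD, n = 4 each), a difference of 0.06 with an interval from -0.06 to 0.18. Slc25a3, the phosphate carrier, lay at 15.79 ± 0.12 in MI and 15.89 ± 0.08 in Sham, a difference of -0.11 with an interval from -0.24 to 0.03. The means of Slc25a3 and Slc25a4 were near the highest value of the table, 16.47.

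Slc25a11, the oxoglutarate carrier, had 13.51, 13.63, 13.79 and 13.52 in MI against 13.71, 13.94, 13.75 and 13.86 in Sham. The groups overlapped through MI rat 7, and the difference of -0.20 ± 0.07 log2 did not pass (adjusted p = 0.097, limma; exact permutation p = 0.0857). Without MI rat 7 it passed, at -0.26 with an adjusted p of 0.016, and Slc25a38 passed as well. Slc25a42, a coenzyme A carrier, lay at 7.81 ± 0.07 in MI and 7.78 ± 0.07 in Sham, in the dimmer part of the array. The 7 members with a mean signal below 7.81, the median of all probe means, differed by at most 0.044 log2 between MI and Sham.

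The substrate classes hold only carriers among the 32 members, of which 23 lay below 0 in MI relative to Sham, and do not cover every carrier of a substrate. The 5 amino acid carriers among the members all lay below 0 (median -0.18, 1 called). So did the 5 members that carry other nucleotides and cofactors (median -0.07, 0 called) and the 4 members of unsettled or structural role (median -0.16, 2 called). The 9 carriers of adenine nucleotides, phosphate and coenzyme A had a median of 0.012 and 0 calls, with 6 above and 3 below 0. They ranged from -0.11 to 0.06. Of these 9, Slc25a23, Slc25a24, Slc25a41 and Slc25a42 had mean signals below 7.81, and Slc25a3 and Slc25a4 lay near the top of the table. Slc25a2 and Slc25a22 of the amino acid carriers were also below 7.81, and differed by only -0.037 and -0.014. The part of signal level in these ranges was not tested. The 3 relatives of the uncoupling proteins, Slc25a14, Slc25a27 and Slc25a30, lay between -0.06 and 0.09 with 0 calls. The probes of Slc25a30 differed in sign, at -0.06 for the chosen probe and 0.09 and -0.05 for the others, which did not pass either. The 4 carriers of di- and tricarboxylates ran from -0.20 in Slc25a11 to 0.13 in Slc25a1, the citrate carrier, whose SD between rats of a group was the largest of the family at 0.271. The glutathione carrier Slc25a39 and its relative Slc25a40 differed by -0.03 and -0.01.

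**Figure D2:**
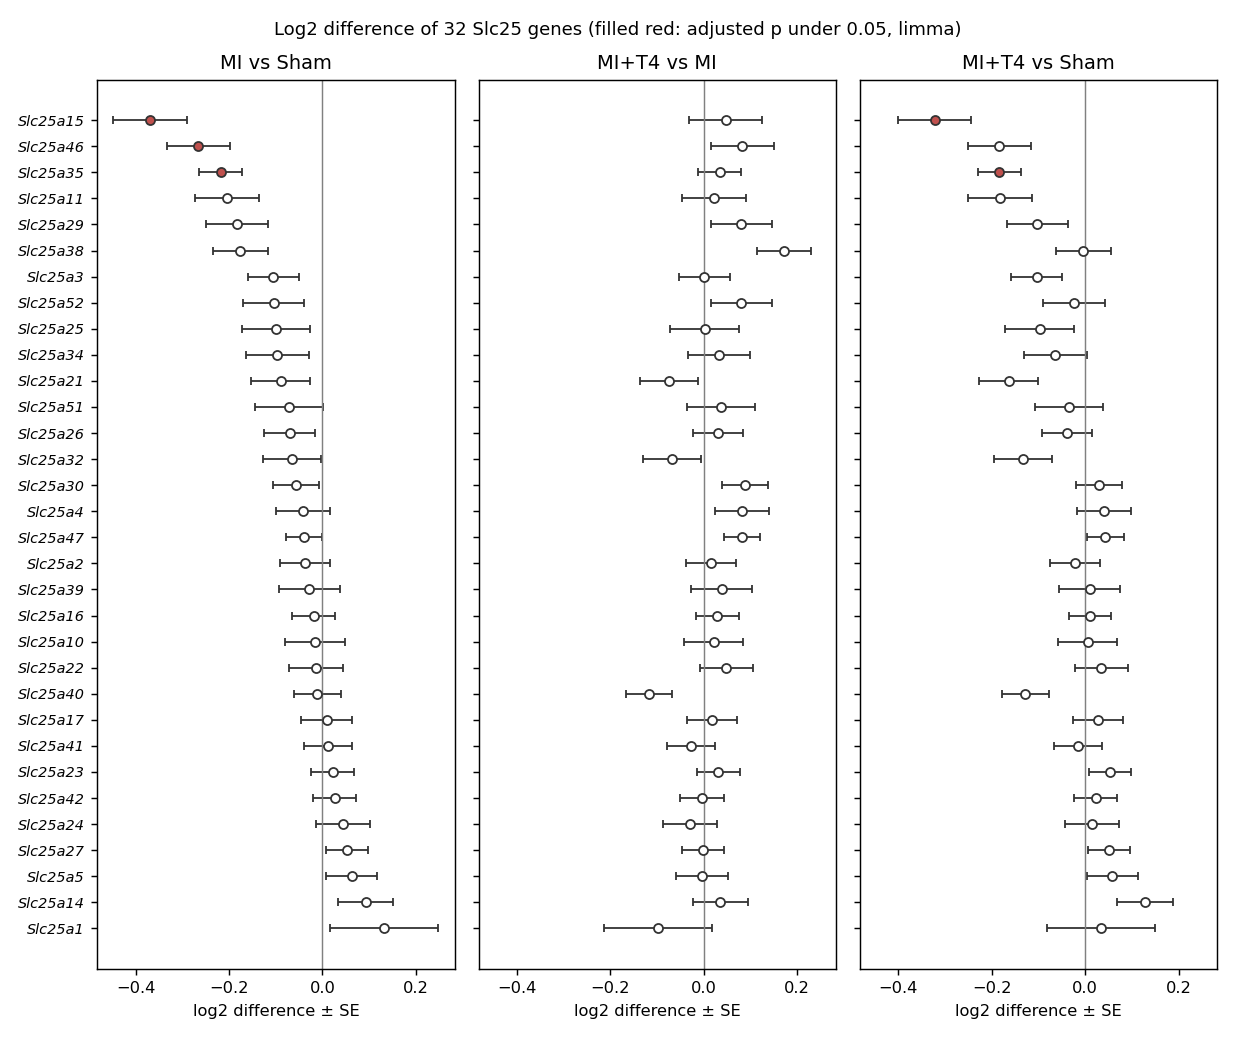
Log2 difference of each of the 32 Slc25 genes, with MI vs Sham at the left, MI+T4 vs MI in the middle and MI+T4 vs Sham at the right (point, with the SE of the limma fit as the bar; filled red where the adjusted p was under 0.05). Only Slc25a15, Slc25a46 and Slc25a35 are filled in MI vs Sham, none in MI+T4 vs MI, and Slc25a15 and Slc25a35 in MI+T4 vs Sham.

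Thyroxine after infarction was compared with placebo after infarction next. No carrier passed in this comparison. In MI+T4 vs MI, limma called 0 of 32 members and 0 of all probes (0%), and 3 members (9.38%) had an unadjusted p under 0.05 on rat means, close to the 5.45% of all probes. The study did report genes altered by T4 relative to MI, after dropping undetected genes and with a moderated F-statistic. As the fit used here called no probe at all in this comparison, its 0 among the members cannot set the carriers apart from other genes. All 32 members were within 0.2 log2, beside 96.8% of all probes, with a median of 0.030, beside 0.0025 for all probes, and 23 of 32 lay above 0. Without the 3 rats that stood apart the median of the members was -0.0049.

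The carriers that fell in MI were not detectably different with T4. Slc25a15 had 9.67, 9.75, 9.39 and 9.75 in MI+T4 rats 5 to 8, against the MI values above, and the lowest of the 4 was MI+T4 rat 7, which stood apart by its fibroblast markers. The difference was 0.05 log2 with a 95% interval on rat means from -0.18 to 0.27, which reaches on both sides of 0. For Slc25a35 it was 0.03 with an interval from -0.06 to 0.13, and for Slc25a46 0.08 with an interval from -0.09 to 0.26.

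Slc25a38 showed the largest difference of the family in this comparison, with 9.66, 9.54, 9.58 and 9.77 in MI+T4 against 9.38, 9.54, 9.59 and 9.35 in MI. The MI+T4 rats overlapped with MI rats 6 and 7. The difference was 0.17 ± 0.06 log2 (adjusted p = 0.40, limma; exact permutation p = 0.143). Without the 3 rats that stood apart the difference was 0.09, and in MI+T4 vs Sham the same gene differed by -0.0040 log2. In 2 members (6.25%) the groups did not overlap, beside 2.99% of all probes. Slc25a40 had 7.95, 8.01, 7.97 and 8.01 in MI+T4 against 8.09, 8.21, 8.07 and 8.04 in MI, a difference of -0.12 (adjusted p = 0.58, limma), and Slc25a47, a carrier best known from liver, lay higher in MI+T4 by 0.08 at the lowest mean signal of the family (7.44).

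The translocases, the phosphate carrier and the oxoglutarate carrier did not pass in MI+T4 vs MI either. Slc25a4 had 16.02, 16.07, 16.08 and 15.95 in MI+T4, a difference from MI of 0.08 with an interval from -0.06 to 0.23. Slc25a3 and Slc25a5 differed by 0.0011 and -0.0043, with intervals from -0.14 to 0.14 and from -0.12 to 0.11. Slc25a11 differed by 0.02, with an interval from -0.16 to 0.20.

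MI+T4 hearts were finally set against Sham hearts, a comparison that uses the same Sham rats as MI vs Sham. Of the 32 carriers, 2 were lower in MI+T4 (6.25%) and 0 higher, beside 1.26% of all probes called in either direction and 0.537% called lower. They were Slc25a15, at -0.32 ± 0.08 log2 (adjusted p = 0.033, limma), and Slc25a35, at -0.18 ± 0.05 log2 (adjusted p = 0.038). All MI+T4 rats lay below all Sham rats in both genes, with 8.68, 8.67, 8.57 and 8.69 in Slc25a35, and the exact permutation test gave p = 0.0286 for each. In both genes MI+T4 rat 7, whose fibroblast markers stood highest of the MI+T4 rats, had the lowest signal, and 3 of 11 fibroblast markers and 2 of 4 atrial markers were called higher in this comparison, whose part in these falls was not tested. Without MI+T4 rat 7 the differences were -0.24 and -0.16 and neither passed (adjusted p = 0.22 for both, limma), and neither passed without Sham rat 2, Sham rat 3 or MI+T4 rat 5 (adjusted p from 0.071 to 0.15). Slc25a15 also missed the threshold without Sham rat 1 (0.086), and Slc25a35 without Sham rat 4 (0.15) or MI+T4 rat 6 (0.074). Without the 3 rats that stood apart, Slc25a15 passed at -0.24 (adjusted p = 0.027, limma) and Slc25a35 did not, at -0.16 (adjusted p = 0.12).

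With 1 mean per rat the adjusted p of Slc25a15 and Slc25a35 was 0.44 and 0.27, 0 members passed, and 7 members (21.9%) had an unadjusted p under 0.05, beside 7.67% of all probes. The median of the members was -0.0096, beside -0.0019 for all probes, with 17 of 32 below 0 and 31 of 32 within 0.2 log2, beside 95% of all probes.

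In 3 members (9.38%) all MI+T4 rats lay below all Sham rats, beside 4.76% of all probes apart in either direction, the third being Slc25a40 at -0.13 ± 0.05 log2 (adjusted p = 0.29, limma). Slc25a46 had 10.13, 10.27, 10.06 and 10.26 in MI+T4, overlapping with Sham rat 1, at -0.18 ± 0.07 log2 (adjusted p = 0.25, limma). Slc25a11 had 13.57, 13.65, 13.48 and 13.83 in MI+T4, likewise overlapping with Sham, at -0.18 ± 0.07 log2 (adjusted p = 0.26, limma). Slc25a21, the oxoadipate carrier, at -0.16 and Slc25a32, a folate and flavin carrier, at -0.13 did not pass either.

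Rat by rat, the median of the family stayed near the Sham mean while single members lay far from it. The median of the 32 members relative to the Sham mean was 0.015, -0.039, -0.030 and -0.0013 in MI+T4 rats 5 to 8, and -0.068, -0.00012, -0.023 and -0.065 in MI rats 5 to 8, against -0.041, 0.013, 0.0052 and 0.0090 in Sham rats 1 to 4. MI rats 5 and 8 had the lowest medians, with 26 and 24 of 32 members below the Sham mean, but Sham rat 1 had 21. In MI rats 5 and 8 and MI+T4 rat 7, Slc25a15 lay at -0.48, -0.59 and -0.57, whereas in the other infarcted rats it lay between -0.29 and -0.19. Genes of general mitochondrial content had medians of -0.21, -0.35 and -0.35 in the same 3 rats, against -0.18 to -0.08 in the other infarcted rats. These 3 rats had the highest fibroblast medians, and an association over all rats was not tested. Atrial markers had medians of 1.68, 1.55 and 2.01 in the same 3 rats and 1.78 in MI+T4 rat 5. The part of these lists in the fall of Slc25a15 was not tested.

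**Figure D3:**
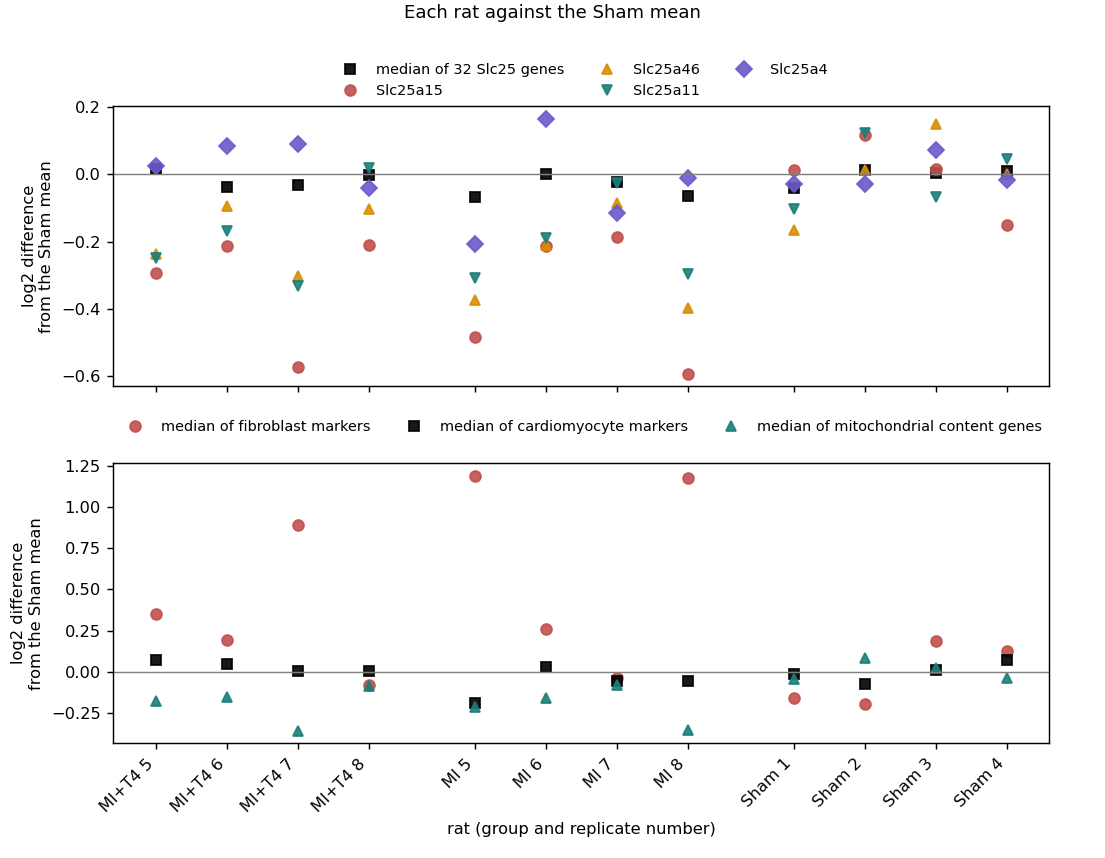
Log2 difference from the Sham mean in each rat (x axis, MI+T4, MI and Sham rats by replicate number), above for the median of the 32 Slc25 genes, Slc25a15, Slc25a46, Slc25a11 and Slc25a4, below for the medians of fibroblast markers, cardiomyocyte markers and mitochondrial content genes. MI rats 5 and 8 and MI+T4 rat 7 have the highest fibroblast medians (1.19, 1.17 and 0.89) and the lowest Slc25a15 values (-0.48, -0.59 and -0.57), while the median of the family stays between -0.068 and 0.015 in every rat.

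Of 6 further carriers or carrier-like genes outside the 32, 1 rose and 1 fell in MI. Ucp2, a member of the same family under its own name, rose in MI, with 13.33, 13.15, 13.08 and 13.32 in MI against 12.81, 12.52, 12.78 and 12.88 in Sham, and all MI rats lay above all Sham rats. The difference was 0.48 ± 0.08 log2 (adjusted p = 0.0012, limma), and in MI+T4 it was 0.46 ± 0.08 above Sham (adjusted p = 0.0022). Slc25a20, the carnitine-acylcarnitine carrier that the rule left out, fell in MI by 0.54 log2 (adjusted p = 0.020, limma) and did not pass in MI+T4 vs Sham, at -0.25. All MI rats lay below all Sham rats in this gene. MI rats 5 and 8 were lowest, at 11.11 and 11.24, beside 11.78 and 11.86 in MI rats 6 and 7 and 11.92 in the lowest Sham rat. The nested F alternative did not call it. Ucp1, Ucp3, Mtch1 and Mtch2 did not pass in any comparison.

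Of 12 measured genes of carrier import, 3 fell in MI and 0 rose, beside 1.72% of all probes called lower in MI. Timm22, the pore-forming subunit of the carrier translocase, fell by 0.29 log2 (adjusted p = 0.0097, limma), the small Tim protein Timm10b by 0.37 (adjusted p = 0.00073) and Tomm40, the channel of the outer membrane, by 0.18 (adjusted p = 0.025). In MI+T4 relative to Sham 1 of 12 fell, beside 0.537% of all probes, namely Timm10b at -0.48 log2 (adjusted p = 4.7e-05, limma). All MI+T4 rats, at 10.26, 10.43, 10.29 and 10.51, lay below all Sham rats, at 10.77, 10.76, 10.94 and 10.93.

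Of 15 measured other transporters of mitochondrial membranes, Sfxn3, a sideroflexin, rose in MI by 0.41 log2 (adjusted p = 0.013, limma) and 14 did not pass, among them the pyruvate carrier subunits Mpc1 and Mpc2 and the calcium uniporter Mcu. Of the 6 enzymes of the malate-aspartate and glycerophosphate shuttles, 0 passed in MI vs Sham and Got2, the mitochondrial aspartate aminotransferase, fell in MI+T4 vs Sham by 0.29 log2 (adjusted p = 0.047). Of 8 genes of mitochondrial content, Cs, Tfam, Hspd1 and Lrpprc fell in MI, by 0.28, 0.25, 0.19 and 0.25 log2, and Lrpprc also in MI+T4 vs Sham, by 0.27. Of all probes 1.72% were called lower in MI. In Cs and Tfam the MI and Sham rats overlapped, and the nested F alternative did not call Cs. Of 10 metabolic regulators, Klf15 fell by 0.35 log2 in MI (adjusted p = 0.034) and by 0.44 in MI+T4 vs Sham (adjusted p = 0.016), and Tfam fell in MI, while Ppargc1a at -0.14 did not pass. In MI+T4 vs MI 0 genes of these lists passed, and with 1 mean per rat 0 of them passed in any comparison, the smallest adjusted p being 0.098 for Timm10b in MI+T4 vs Sham.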

How the data were processed

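The deposited table holds values that were read as log2. The authors hybridized 12 rats to Illumina RatRef-12 BeadChips, applied a variance stabilizing transformation that is close to log2 and then robust spline normalization, and no scale is given in the table itself. Another table gives raw signals with detection p-values, but its 48 columns name BeadChip positions that could not be paired with samples and were left aside, so no probe was left out as undetected. The array annotation and its Entrez identifiers gave a symbol to 13793 of 22523 probes. Each of the 24 arrays correlated best with the second array of the same animal.

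A model with 3 group means was fitted to all probes in R 4.3.3 with limma 3.58.1 and statmod 1.5.0, taking each rat as a block (duplicateCorrelation, 0.243), with eBayes and Benjamini-Hochberg adjustment per comparison at 0.05. The SE is that of this fit, and SDs and 95% intervals are from rat means. The script was tested on simulated data. Named genes are all members called, those whose groups did not overlap at 0.2 log2 or more, and Slc25a3, Slc25a4, Slc25a5, Slc25a11, Slc25a15 and Slc25a42 whatever their values (Slc25a12, Slc25a13, Slc25a28 and Slc25a37, also in the rule, were not analysed here). The other members, Slc25a26, Slc25a29, Slc25a38, Slc25a40 and Slc25a47 among them, were named after their values were seen. The members, the lists and the 3 rats left out together were chosen with earlier results of these data known. Genes that the study had reported as changed on these samples stand among the members and in the lists, so their counts are not independent of it. Its genes altered by infarction include Slc25a15 and LOC497933, and 497933 is the Entrez identifier of Slc25a35. Alternatives were averaged arrays, nested F, joint adjustment, only the compared groups, another variance prior, quantile normalization and brighter probes. Others were the technical replicate number as a term, each technical replicate alone, each rat left out and the mean of all probes of a gene. The labels number the technical replicates and name no BeadChip. Figures were drawn in matplotlib 3.10.9 (Python 3.11.15).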

Additional observations from a re-analysis of the deposited data

Results flagged for a closer look

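In each group of 4 rats of each member the gap of the outermost rat to its neighbour was divided by the range of the group, and a ratio above Dixon's 95% critical value marked the rat as far from the others. This held in 3 of 96 groups, fewer than the 1 in 20 that chance marks. In Slc25a4 Sham rat 3 lay highest, at 16.06, with a ratio of 0.866. In Slc25a30 Sham rat 3 lay lowest, at 8.24, with a ratio of 0.875. In Slc25a42 MI+T4 rat 6 lay highest, at 7.89, with a ratio of 0.831. None of these genes passed the test in any comparison.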

How the results depend on the processing

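The direction of the 3 falls in MI and of the 2 in MI+T4 relative to Sham was the same under all alternatives run. Averaged arrays, nested F, joint adjustment, only the compared groups and another variance prior leave the difference itself unchanged. So does the technical replicate as a term, since each rat had 1 array of each. The mean of all probes does too, as these genes had 1 probe each. The number of members called did change. It was 3 in MI vs Sham and 2 in MI+T4 vs Sham. With arrays averaged per rat, or with either technical replicate alone, it was 0 and 0. Without MI rats 5 and 8 and MI+T4 rat 7 together it was 0 and 1. In MI+T4 vs Sham it was 1 with a trended and robust variance prior, 1 with quantile normalization and 0 with the brighter probes only. Leaving out 1 rat at a time gave 1 to 5 in MI vs Sham, the lowest without MI rat 8 and the highest without MI rat 7, and 0 to 3 in MI+T4 vs Sham, with 0 without Sham rat 2, Sham rat 3, MI+T4 rat 5 or MI+T4 rat 7 and 1 without Sham rat 1, Sham rat 4 or MI+T4 rat 6. The median of the members was -0.0058 in MI vs Sham and -0.0049 in MI+T4 vs MI without the 3 rats, and -0.070 in MI vs Sham among the brighter probes, where fewer members are counted. Slc25a46 lost its call in MI vs Sham in 10 of 20 alternatives, Slc25a15 in 5 and Slc25a35 in 4; in MI+T4 vs Sham, Slc25a15 lost it in 9 and Slc25a35 in 13. The cause of these changes was not tested, and some of the alternatives also held fewer rats or arrays. Of 687 values of members not called, 41 had the other sign, but the 687 include alternatives that cannot change a sign. In MI+T4 vs MI 0 members were called under every alternative.

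MI and MI+T4 share the replicate numbers 5 to 8, but the rats differ. The correlations of their deviations were 0.11, 0.25, -0.53 and -0.48. So few values, with no reference beside them, cannot decide whether the numbers pair the rats. With the number as a replicate block on rat means, 0 members were called in MI+T4 vs MI. In that fit 1 member and 845 of all probes had an unadjusted p under 0.05. The median was 0.030, which such a balanced block cannot change.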
